A study of Homo sapiens with 18 samples.

Results

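ABCA1, ABCA2, ABCA3, PLTP and APOC2 are 5 genes of lipid transport and lipoprotein handling. They were followed by RNA sequencing in OCI-AML3 and OCI-AML2, established cell lines from human acute myeloid leukaemia. Members were found by gene symbol, which gave 8 lines for the 5 symbols in a table holding 5069 distinct sets of values, and 1 line per gene was kept. The symbols were picked with earlier results of these data known, so levels in the clones are a description. The table repeats values under wrong symbols. For ABCA2, ABCA3 and APOC2 the trusted line has a twin under another symbol in which the 3 values of OCI-AML3 clone 1 are rotated, and ABCA1 and PLTP stand in 1 line each with similar levels in both parental lines. The other 3 lines printed as ABCA2, ABCA3 and APOC2 had no such support and were left out.

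The groups were OCI-AML3 clone 1, OCI-AML3 clone 2, OCI-AML3 parental, OCI-AML2 clone 1, OCI-AML2 clone 2 and OCI-AML2 parental, with 3 libraries each and 18 in all. OCI-AML3 cells carry the mutated NPM1 labelled NPM1c+ and OCI-AML2 cells normal NPM1. The clones were labelled as caspase-2 knockouts and the parental cells as caspase-2 WT, each clone group is 1 clone of its line, and all cells were untreated. How the knockouts were made is not given in the labels. Caspase-2 is a protease of stress-induced cell death, and the clones are set against their own parental cells. CASP2 mRNA averaged 9.72% and 12.3% of the parental level in OCI-AML2 clones 1 and 2. In the clones of OCI-AML3 it averaged 94.2% and 112% of parental, so the mRNA of the clones labelled as knockouts was not reduced there, and every direction given for OCI-AML3 rests on the label. Values are TPM, read numbers scaled by transcript length and library total, and the read depth is unknown. No label says that replicates were separate cultures, so errors and p-values measure the spread between libraries, which may be technical.

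Lipid export helps to prevent cholesterol overload. ABCA1 is the membrane pump that loads cholesterol and phospholipid onto apolipoprotein A-I and so starts a high-density lipoprotein particle, and PLTP moves phospholipid between lipoproteins in plasma. ABCA2 works in late endosomes and lysosomes and ABCA3 in the lamellar bodies of lung epithelium, where it loads surfactant lipid. APOC2 is the cofactor that activates lipoprotein lipase on triglyceride-rich particles. In macrophages, oxysterols acting on the nuclear receptor LXR with its partner RXR induce ABCA1, ABCG1, PLTP, APOE and the APOC2 gene cluster.

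The sequences before the start sites of ABCA1, PLTP and APOC2 are shown because these genes are textbook LXR targets whose levels differed in direction here. They are the 250 bases before the annotated start, taken from RefSeq (GRCh38.p14) by gene symbol, and all 5 genes matched. They lie at chr9:104928156-104928405 on the minus strand for ABCA1, chr20:45912156-45912405 on the minus strand for PLTP, and chr19:44945801-44946050 on the plus strand for APOC2. Capitals mark the LXR-type repeat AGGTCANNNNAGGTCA on either strand with at most 2 mismatches, the E-box CACGTG, and TATAAA on the gene's strand.
ABCA1: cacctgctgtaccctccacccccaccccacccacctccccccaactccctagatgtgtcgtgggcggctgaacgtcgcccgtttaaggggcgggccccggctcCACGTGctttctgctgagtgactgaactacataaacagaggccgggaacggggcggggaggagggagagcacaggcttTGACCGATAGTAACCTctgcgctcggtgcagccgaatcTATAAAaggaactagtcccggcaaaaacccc
PLTP: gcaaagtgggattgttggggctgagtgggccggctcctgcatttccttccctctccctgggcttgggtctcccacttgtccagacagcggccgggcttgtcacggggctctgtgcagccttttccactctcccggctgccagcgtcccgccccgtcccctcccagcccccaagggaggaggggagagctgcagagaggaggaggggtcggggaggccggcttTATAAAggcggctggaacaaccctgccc
APOC2: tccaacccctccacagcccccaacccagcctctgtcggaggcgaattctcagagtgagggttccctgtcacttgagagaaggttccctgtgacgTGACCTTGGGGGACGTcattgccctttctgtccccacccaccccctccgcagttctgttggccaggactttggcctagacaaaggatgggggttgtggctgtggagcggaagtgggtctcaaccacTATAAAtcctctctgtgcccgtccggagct

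The ABCA1 window held TGACCGATAGTAACCT, the repeat on the opposite strand with 2 mismatches, from 69 to 54 bases before the start. The APOC2 window held TGACCTTGGGGGACGT, also with 2 mismatches, from 156 to 141 bases before the start. Of all 35116 RefSeq windows of this length, 2.03% held such a match. The windows of PLTP, ABCA2 and ABCA3 held none under this rule. CACGTG stood in the ABCA1 window, as in 6.34% of all windows. TATAAA stood in the ABCA1, PLTP and APOC2 windows, as in 6.80% of all windows. The ABCA3 window had 38 CG dinucleotides and 79.2% G and C, against medians of 11 and 58.0% over all windows. A match describes letters only. PLTP and ABCA2 have 2 starts each in the RefSeq table, of which the outermost was used.

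In both OCI-AML3 clones the phospholipid transfer gene PLTP and the ABC transporter genes ABCA1, ABCA2 and ABCA3 were lower than in the parental cells, and the apolipoprotein gene APOC2 was higher. PLTP stood at 3.11% and 3.17% of the parental level in clones 1 and 2 and ABCA3 at 12.1% and 12.6%, while ABCA2 and ABCA1 kept between 32.5% and 61.0%. In OCI-AML2, PLTP was again lower in both clones but by less, ABCA1 was higher in clone 1 and near the parental level in clone 2, and APOC2 was high in all 9 libraries.

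**Figure D1:**
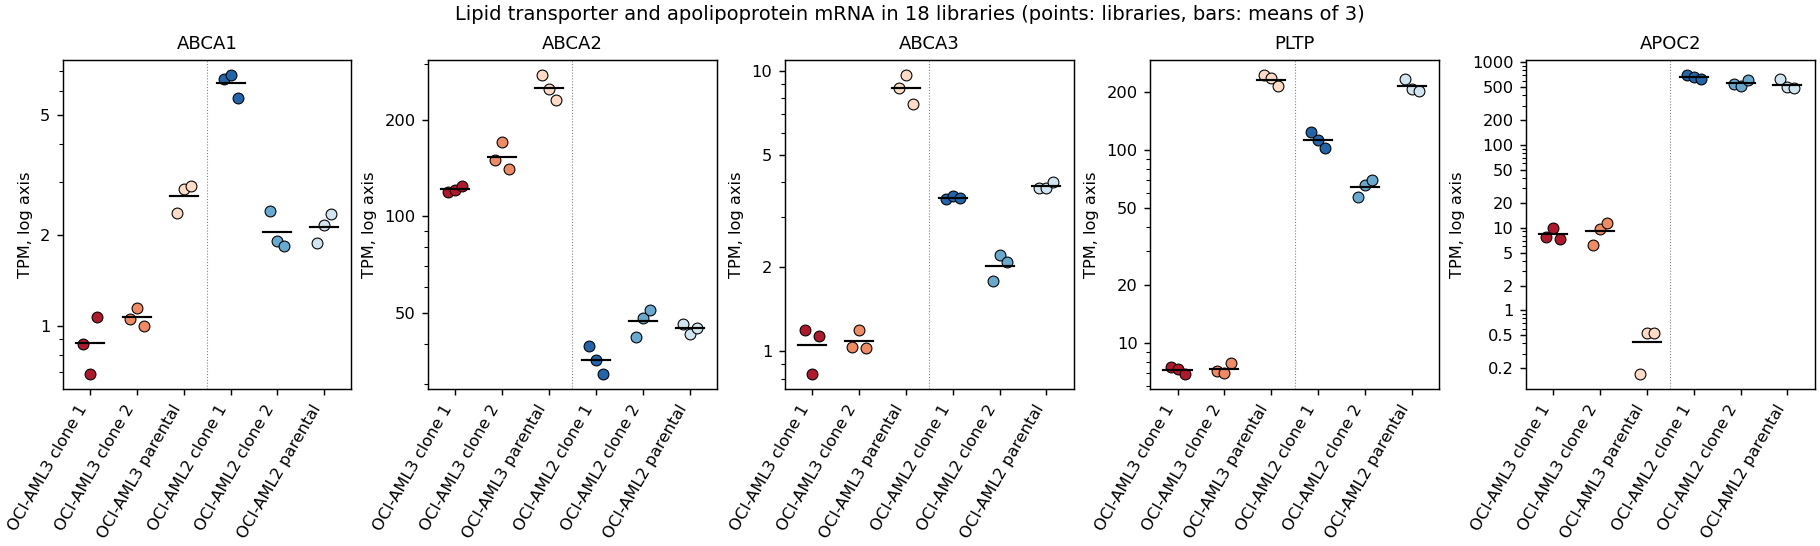
TPM of the 5 genes (log axes, 1 panel each) in the 6 groups, with a point per library and a bar at the mean of 3. PLTP is at 6.9 to 7.91 TPM in the OCI-AML3 clones and at 203.37 to 245.23 TPM in the parental groups, and APOC2 is at 482.96 to 701.3 TPM in OCI-AML2 and at 0.17 to 0.54 TPM in OCI-AML3 parental cells.

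PLTP is the plasma phospholipid transfer protein, which enlarges high-density lipoprotein particles and belongs to the family of the bactericidal protein BPI. In OCI-AML3 it had 7.48, 7.29 and 6.9 TPM in clone 1 and 7.17, 6.99 and 7.91 TPM in clone 2, against 245.23, 236.73 and 214.41 TPM in parental libraries. Every clone library was far below every parental one, and the clones overlapped each other. The difference on the log2(TPM + 1) scale was -4.82 in clone 1 and -4.80 in clone 2 (SE 0.09 each), with means at 3.11% and 3.17% of parental. These values carry no p, since the table itself appears to be selected on the OCI-AML3 clones, on OCI-AML2 clone 1 and on the parental lines. This selection is inferred, since 97.5% of lines passed a limit in these contrasts.

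In OCI-AML2, PLTP had 123.79, 112.82 and 102.8 TPM in clone 1 and 57.31, 65.65 and 69.63 TPM in clone 2, against 235.21, 207.9 and 203.37 TPM in parental libraries. The 3 groups did not overlap, and clone 2 was the lowest. The log2 difference from parental was -0.92 (SE 0.09) in clone 1. Clone 2 is not part of the inferred selection, though whether it took part was not tested. It shares its parental libraries with clone 1 and fell to 29.8% of parental (log2 difference -1.73, SE 0.09, limma adjusted p = 7.6e-12). It was also lower than clone 1 (log2 difference -0.81, SE 0.09, adjusted p = 3.3e-07). OCI-AML2 clone 1 and both OCI-AML3 clones entered the selection, so p-values between clones, here and below, are descriptions. The parental lines overlapped, at 232 ± 15.9 TPM in OCI-AML3 and 215 ± 17.2 TPM in OCI-AML2 (SD, n = 3 each). This likeness was fixed by the choice of the line, since PLTP and ABCA1 were accepted for a parental log2 ratio under 0.6. The mean change of the clones in OCI-AML3 minus that in OCI-AML2 was -3.48 (SE 0.11).

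ABCA1, the cholesterol and phospholipid exporter, was a low transcript throughout. In OCI-AML3 it had 0.87, 0.69 and 1.07 TPM in clone 1 and 1.05, 1.14 and 1 TPM in clone 2, against 2.36, 2.84 and 2.9 TPM in parental libraries. All 6 clone libraries were below the parental ones, with log2 differences of -0.98 and -0.84 (SE 0.10 each). In OCI-AML2 it had 6.58, 6.78 and 5.71 TPM in clone 1 and 2.4, 1.91 and 1.84 TPM in clone 2, against 1.88, 2.16 and 2.34 TPM in parental libraries. Clone 1 alone stood apart, at 2.99 times the parental mean (log2 difference 1.23, SE 0.10). Clone 2 overlapped the parental libraries (log2 difference -0.04, 95% interval -0.25 to 0.18, adjusted p = 0.789). Clone 2 was below clone 1 by -1.27 on the log2 scale (SE 0.10, adjusted p = 6.1e-09). Clone 1 entered the selection of the table, so this p-value is not independent evidence. At such levels the scale of log2(TPM + 1) understates ratios. The ratio of means was 0.325 in OCI-AML3 clone 1 and 0.394 in OCI-AML3 clone 2.

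ABCA2, the transporter of late endosomes and lysosomes that is abundant in brain, had the highest TPM of the 3 ABC transporters among the 5 genes. In OCI-AML3 it had 119.35, 120.55 and 124.7 TPM in clone 1 and 150.22, 170.54 and 140.44 TPM in clone 2, against 276.29, 249.39 and 230.59 TPM in parental libraries. The 3 groups did not overlap, and the log2 differences from parental were -1.04 and -0.71 (SE 0.09 each). Clone 2 was above clone 1 by 0.33 (SE 0.09, adjusted p = 0.0385, range over 24 alternatives 0.0222 to 0.177). That call ended with a pseudocount of 0.1 and without any 1 of OCI-AML3 clone 1 replicates 1, 2 and 3, OCI-AML3 clone 2 replicates 1 and 2, and OCI-AML2 parental replicate 3 (adjusted p = 0.0503 to 0.177).

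In OCI-AML2, ABCA2 had 39.37, 35.62 and 32.18 TPM in clone 1 and 42.11, 48.13 and 51.18 TPM in clone 2, against 46.28, 42.91 and 44.86 TPM in parental libraries. Clone 1 was below the parental range (log2 difference -0.32, SE 0.09). Clone 2 spanned it (log2 difference 0.07, 95% interval -0.13 to 0.27, adjusted p = 0.529). Clone 2 was above clone 1 by 0.39 (SE 0.09, adjusted p = 0.00126). The parental lines were far apart, with ABCA2 at 252 ± 23.0 TPM in OCI-AML3 and 44.7 ± 1.69 TPM in OCI-AML2 (SD, n = 3 each), so even the reduced OCI-AML3 clones stayed above every OCI-AML2 library.

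ABCA3, best known as the phospholipid pump of surfactant-storing lung cells, was low in these leukaemia lines. In OCI-AML3 it had 1.19, 0.83 and 1.13 TPM in clone 1 and 1.04, 1.19 and 1.03 TPM in clone 2, against 8.69, 9.65 and 7.61 TPM in parental libraries. The clones did not overlap the parental cells and were alike in level (log2 differences -2.23 and -2.20 from parental, SE 0.09 each). The difference between these clones was 0.03 (95% interval -0.17 to 0.22, adjusted p = 0.915).

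In OCI-AML2, ABCA3 had 3.48, 3.58 and 3.53 TPM in clone 1 and 1.78, 2.2 and 2.08 TPM in clone 2, against 3.81, 3.83 and 4 TPM in parental libraries. Clone 1 lay just under the parental range (log2 difference -0.11, 95% interval -0.30 to 0.09). Clone 2 fell to 52.1% of the parental mean (log2 difference -0.69, SE 0.09, adjusted p = 2.0e-06). It also lay below clone 1 (log2 difference -0.59, SE 0.09, adjusted p = 2.0e-05). The parental cells averaged 8.65 ± 1.02 TPM in OCI-AML3 and 3.88 ± 0.104 TPM in OCI-AML2 (SD, n = 3 each).

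APOC2, the lipoprotein lipase cofactor, separated the cell lines more than any other of the 5 genes. In OCI-AML3 it had 7.66, 10.03 and 7.23 TPM in clone 1 and 6.1, 9.62 and 11.32 TPM in clone 2, against 0.17, 0.54 and 0.53 TPM in parental libraries. Every clone library was above every parental one, with log2 differences of 2.72 and 2.80 (SE 0.17 each) and ratios of means of 20.1 and 21.8. In OCI-AML2 it had 701.3, 668.26 and 619.74 TPM in clone 1 and 551.98, 512.58 and 611 TPM in clone 2, against 627.95, 498.89 and 482.96 TPM in parental libraries. These 9 libraries were all high, and each clone overlapped the parental range. The log2 difference was 0.31 in clone 1 (95% interval -0.05 to 0.68) and 0.06 in clone 2 (95% interval -0.30 to 0.43, adjusted p = 0.792). The clones of OCI-AML3 therefore remained far under OCI-AML2, and the parental means were 0.413 ± 0.211 TPM in OCI-AML3 and 537 ± 79.5 TPM in OCI-AML2 (SD, n = 3 each). RefSeq also annotates a readthrough transcript APOC4-APOC2 over this gene, and how the authors' counting shared its reads is not given, so the APOC2 level is uncertain to that extent.

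**Figure D2:**
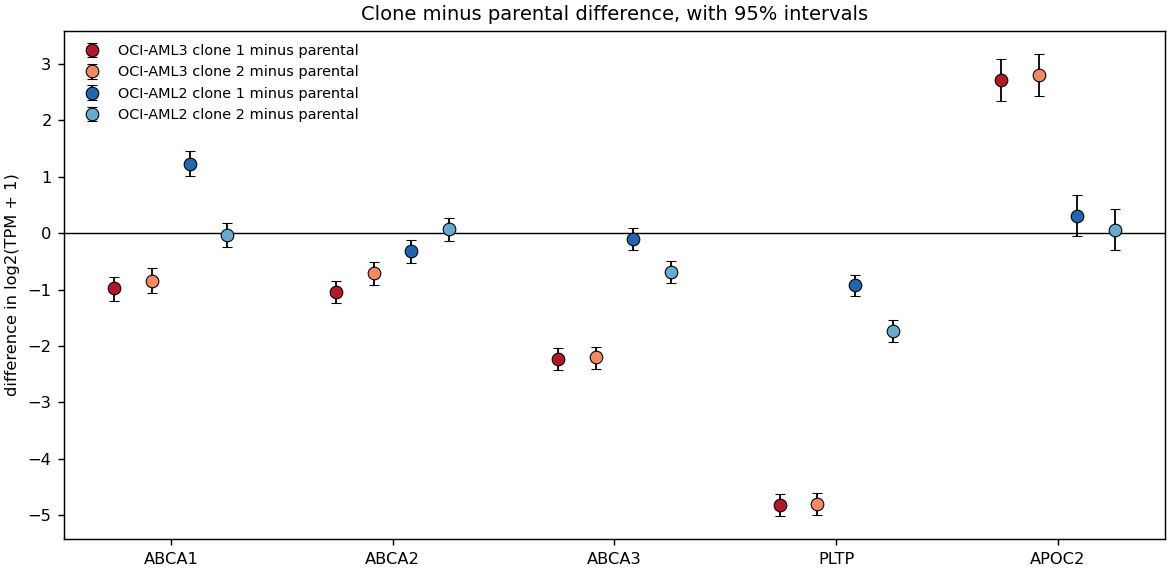
Clone minus parental difference in log2(TPM + 1) for each of the 5 genes, with a point per clone and bars for the 95% interval of the fit. The OCI-AML3 clones lie close together for PLTP (-4.82 and -4.80) and APOC2 (2.72 and 2.80) and further apart for ABCA2 (-1.04 and -0.71), and the OCI-AML2 clones part for ABCA1 (1.23 and -0.04).

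Counted over the 5 genes, 4 were lower and 1 was higher in both OCI-AML3 clones with no overlap with the parental libraries. Over all 4413 tested sets of values, 38.8% were lower and 29.3% higher by the same rule. In OCI-AML2 clone 1, 3 were lower and 1 higher without overlap, where 23.3% and 37.5% of all sets were. Between the parental lines 4 of 5 did not overlap, beside 91.3% of all sets. These comparisons entered the choice of the table, and nothing is read from the counts. In OCI-AML2 clone 2 against parental, 2 of 5 passed, beside 65.7% of all sets in either direction. Both fell, as did 1212 of the 4413 sets. Clone 2 against clone 1 gave 4 of 5 in OCI-AML2, beside 58.9%, and 1 of 5 in OCI-AML3, beside 6.82%. OCI-AML2 clone 1 and both OCI-AML3 clones entered the choice of the table, so nothing is read from these counts either. The median log2 difference of the 5 genes was -1.04 and -0.84 in OCI-AML3 clones 1 and 2, where that of all sets was -0.06 in each. It was -0.11 and -0.04 in OCI-AML2 clones 1 and 2, where that of all sets was 0.06 in each. In bulk RNA, fewer cells expressing a gene and less RNA per cell cannot be told apart.

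The order of groups differed from gene to gene. For ABCA1 the order ran from OCI-AML2 clone 1 (6.36 TPM) over OCI-AML3 parental (2.70), OCI-AML2 parental (2.13), OCI-AML2 clone 2 (2.05) and OCI-AML3 clone 2 (1.06) to OCI-AML3 clone 1 (0.877). In this order OCI-AML2 parental and clone 2 overlapped, as did both OCI-AML3 clones. ABCA3 and PLTP shared an order, with OCI-AML3 parental highest, then OCI-AML2 parental, clone 1 and clone 2, and the OCI-AML3 clones lowest. Neighbours overlapped there between the OCI-AML3 clones for both genes and between the parental lines for PLTP. ABCA2 ran from OCI-AML3 parental over clones 2 and 1 to OCI-AML2 clone 2, parental and clone 1, with overlap of OCI-AML2 clone 2 and parental. APOC2 ran from OCI-AML2 clone 1 over clone 2 and parental to OCI-AML3 clone 2, clone 1 and parental, with overlap of OCI-AML2 clone 2 and parental and of the OCI-AML3 clones. Highest over lowest group mean was 7.25 for ABCA1, 7.06 for ABCA2, 8.24 for ABCA3, 32.1 for PLTP and 1604 for APOC2.

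The genes most like each of the 5 were sought by Pearson's r of log2(TPM + 1) over the 18 libraries among 2080 other tested symbols. These r are descriptions, since all points share libraries and the 6 groups set most of the spread. NPC2, the lysosomal protein that hands cholesterol on to NPC1, was among the 3 most like ABCA1 (r = 0.946), with CLGN (0.961), a chaperone of testis, and PRAME (0.947), a tumour antigen. PLTP was most like RBMS2 (0.991), PRKCB (0.989), a protein kinase C, and PARP4 (0.983). ABCA3 was most like KLHL30 (0.989), the receptor kinase gene LTK (0.969) and SRGAP3 (0.965). For APOC2 they were the integrin gene ITGAL (0.996), TSHZ3 (0.994) and the cytidine deaminase gene CDA (0.993), all higher in OCI-AML2 than in OCI-AML3. For ABCA2 they were PNMA6A (0.987), the homeobox gene NKX6-1 (0.987) and PTPRF (0.986), all near or at 0 in OCI-AML2.

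Other genes of lipid transport were taken from 7 lists naming 134 genes, of which 45 were printed in the table, 25 had a settled symbol and 20 were tested. In both OCI-AML3 clones 9 of the 20 rose and 8 fell (median log2 difference 0.04, all sets -0.06), where 28.7% of all tested sets rose and 38.3% fell. In both OCI-AML2 clones 8 of the 20 rose and 2 fell (median 0.23, all sets 0.06), where 23.8% and 14.6% of all sets did. The table was chosen on most of these contrasts, so these shares and the p-values below are not independent evidence of change.

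Of 17 listed receptors, 7 were printed and 4 could be tested. Of these, 3 rose in both OCI-AML3 clones, as did 28.7% of all sets. CD36, a scavenger receptor for oxidised lipoprotein and fatty acid, averaged 40.4 and 34.5 TPM in clones 1 and 2, against 1.12 TPM in parental cells (log2 differences 4.30 and 4.08, highest adjusted p = 1.0e-15). In OCI-AML2 it was low, at 0.0867 and 1.06 TPM in clones 1 and 2 and 0.190 TPM in parental cells. There it rose in clone 2 (0.79, adjusted p = 6.6e-06) and did not pass in clone 1 (-0.13, adjusted p = 0.360). With a pseudocount of 0.1, CD36 was lower in OCI-AML2 clone 1 (-0.63, adjusted p = 0.0315). APOBR, a receptor for apolipoprotein B, rose in both OCI-AML3 clones (2.58 and 2.59) and in both OCI-AML2 clones (1.01 and 0.49). SORL1, a sorting receptor, rose in OCI-AML3 (1.96 in each clone) and fell in OCI-AML2 (-0.34 and -0.55). LRP1, the large endocytic receptor of apolipoprotein E, passed in OCI-AML3 clone 1 (-0.21, adjusted p = 0.0224) and not in clone 2 (0.13, adjusted p = 0.142).

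Of the PLTP family and lipases only BPI, the bactericidal relative of PLTP, could be tested. BPI averaged 171 and 33.8 TPM in OCI-AML2 clones 1 and 2, against 1.88 TPM in parental cells (log2 differences 5.89 and 3.58, adjusted p = 7.7e-17 and 5.0e-14). In OCI-AML3 its mean was 0.200 TPM or less in every group. PLTP and BPI, relatives in sequence family, thus had differences of opposite sign in the OCI-AML2 clones.

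Of 3 ABC transporters tested beside the members, ABCG1, which passes cholesterol on to high-density lipoprotein, stood out in OCI-AML2. It had 3.2, 2.94 and 2.8 TPM in clone 1 and 0.43, 0.51 and 0.39 TPM in clone 2, against 0.01, 0 and 0.04 TPM in parental libraries. Clone 1 was highest and clone 2 between (log2 differences 1.97 and 0.50, adjusted p = 2.9e-15 and 2.1e-07). In OCI-AML3 it was listed at 0 in all 6 clone libraries and in 2 of 3 parental libraries. ABCB4, a phosphatidylcholine floppase of bile canaliculi, rose in all 4 clones (1.30 and 1.39 in OCI-AML3, 1.12 and 0.32 in OCI-AML2). ABCA5 rose in both OCI-AML3 clones (0.53 and 0.46). In OCI-AML2 it rose in clone 1 (0.24, adjusted p = 0.0247) and did not pass in clone 2 (0.05, adjusted p = 0.696).

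Of the apolipoproteins, APOE, the ligand of lipoprotein receptors, rose in both OCI-AML3 clones. It had 8.34, 7.12 and 6.38 TPM in clone 1 and 5.56, 8.45 and 6.51 TPM in clone 2, against 1.79, 3.77 and 2.61 TPM in parental libraries (log2 differences 1.18 and 1.09, adjusted p = 1.9e-04 and 4.0e-04). APOE lies in the gene cluster of APOC2, and both were higher in the OCI-AML3 clones. In OCI-AML2 clone 2 APOE fell (-0.92, adjusted p = 0.00204), where APOC2 was at 0.06. APOL3 fell in both OCI-AML3 clones (-1.38 and -1.73). In OCI-AML2 it rose in clone 1 (0.41, adjusted p = 0.00502) and did not pass in clone 2 (0.05, adjusted p = 0.755).

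Of 22 listed genes that handle cholesterol inside the cell, 8 were printed and 3 could be tested. All 3 fell in both OCI-AML3 clones, as did 38.3% of all sets. NPC2 had 58.53, 57.83 and 67.28 TPM in clone 1 and 54.74, 55.5 and 61.3 TPM in clone 2, against 141.05, 131.56 and 146.7 TPM in parental libraries (log2 differences -1.18 and -1.28, highest adjusted p = 1.1e-09). In OCI-AML2, NPC2 rose in clone 1 (0.78) and fell in clone 2 (-0.33). The oxysterol-binding protein genes OSBPL3 (-0.65 and -0.77) and OSBPL6 (-1.07 and -1.08) were the other two. In OCI-AML2, OSBPL3 rose in both clones (1.23 and 2.07).

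Among regulators and their targets, PPARD, a fatty acid-sensing nuclear receptor, averaged 145 and 179 TPM in OCI-AML3 clones 1 and 2, against 54.1 TPM in parental cells. It fell in both OCI-AML2 clones (-0.52 and -0.92). PPARG, its relative in fat cells and macrophages, rose in both OCI-AML3 clones (0.94 and 0.85). In OCI-AML2, PPARG fell in clone 2 (-0.80, adjusted p = 1.8e-06) and did not pass in clone 1 (0.09, adjusted p = 0.480). LPCAT3, a phospholipid-remodelling enzyme induced by LXR, fell in both OCI-AML3 clones (-1.48 and -1.31) and rose in both OCI-AML2 clones (0.98 and 1.02). SMPDL3A, a phosphodiesterase induced by LXR in human macrophages, fell in both OCI-AML3 clones (-1.02 and -0.70). In OCI-AML2, SMPDL3A fell in clone 2 (-0.48, adjusted p = 0.00158) and did not pass in clone 1 (-0.28, adjusted p = 0.0577), unlike LPCAT3.

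Flippase genes tested were ATP10A, ATP8B3 and ATP9A, which belong to a family that moves phospholipid to the inner leaflet. ATP10A and ATP8B3 fell in both OCI-AML3 clones (highest adjusted p = 0.00445) and rose in both OCI-AML2 clones. After rescaling by medians of ratios ATP10A did not pass in OCI-AML3 clone 1 (-0.13, adjusted p = 0.107). ATP9A rose in both OCI-AML3 clones (1.11 and 1.04). In OCI-AML2 it rose in clone 2 (0.37, adjusted p = 5.9e-04) and did not pass in clone 1 (0.04, adjusted p = 0.748).

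**Figure D3:**
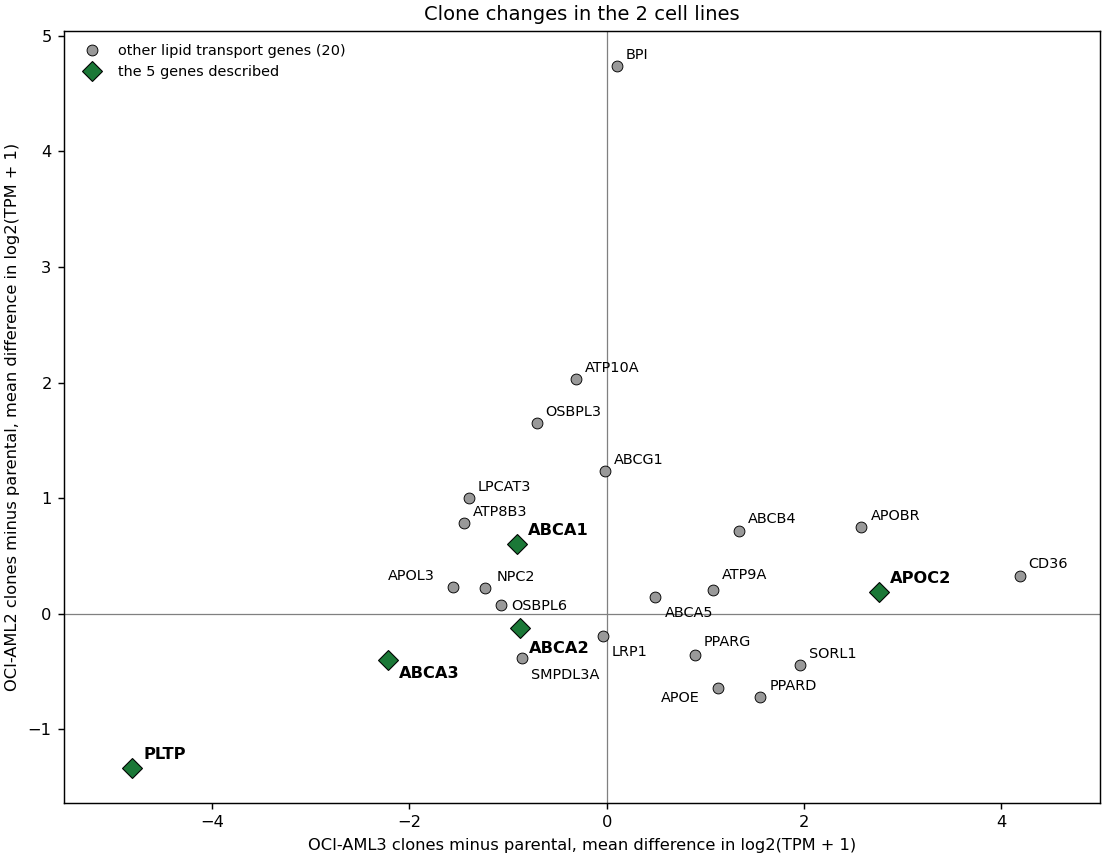
Mean clone minus parental difference in log2(TPM + 1) in OCI-AML3 (horizontal) and OCI-AML2 (vertical) for the 5 genes (diamonds) and 20 other lipid transport genes (circles). PLTP is lower in both lines (-4.81 and -1.33), ABCA1 lies at -0.91 and 0.60, where the OCI-AML2 value is the mean of clones at 1.23 and -0.04, and APOC2 lies at 2.76 and 0.19.

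ABCA1 was set beside ABCG1, NPC2 and LPCAT3, which were chosen for this after their values had been seen. In OCI-AML2 clone 1 all 4 means were above the parental ones, with log2 differences of 1.23 for ABCA1, 1.97 for ABCG1, 0.78 for NPC2 and 0.98 for LPCAT3. In OCI-AML2 clone 2 the differences were -0.04 for ABCA1, 0.50 for ABCG1, -0.33 for NPC2 and 1.02 for LPCAT3. NPC2 was not named above as induced by LXR. Of the genes so named that are not among these 4, PLTP was lower in OCI-AML2 clone 1 (-0.92). APOE (-0.36, limma adjusted p = 0.207) and SMPDL3A (-0.28, adjusted p = 0.0577) did not pass there, and APOC2 overlapped the parental libraries (0.31). In OCI-AML2 clone 2, PLTP (-1.73, adjusted p = 7.6e-12), APOE (-0.92, adjusted p = 0.00204) and SMPDL3A (-0.48, adjusted p = 0.00158) were lower. APOC2 overlapped the parental libraries there too (0.06).

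**Figure D4:**
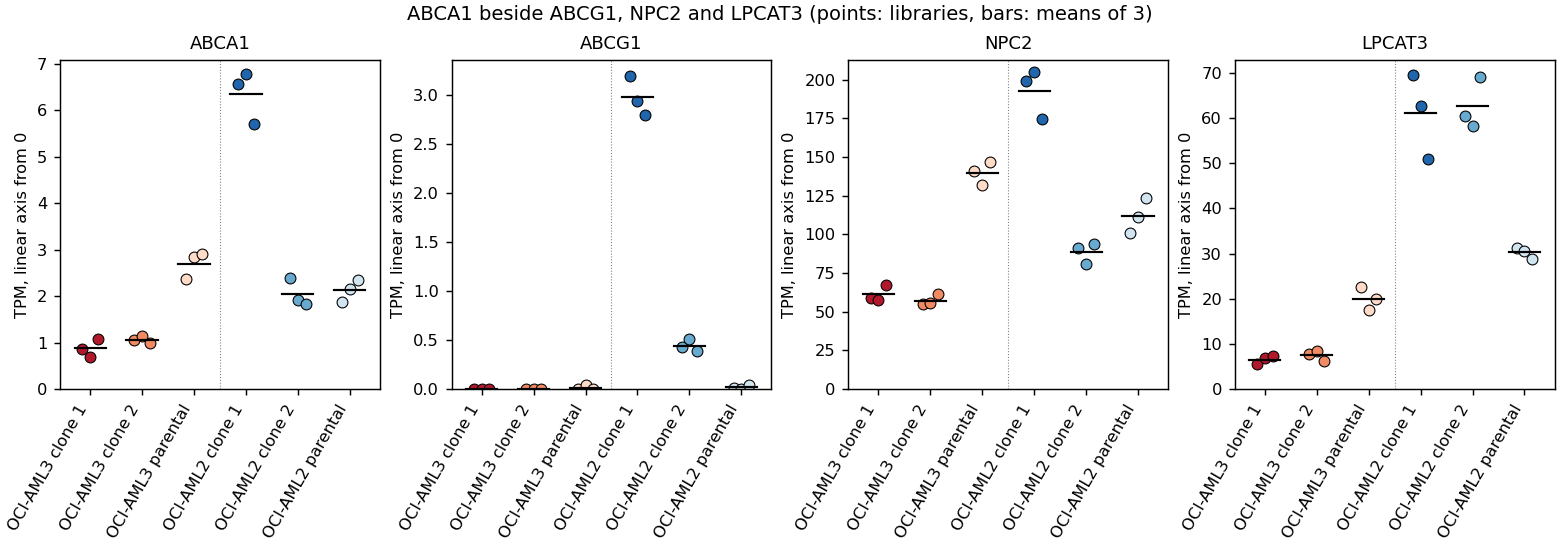
TPM (linear axes from 0) of ABCA1, ABCG1, NPC2 and LPCAT3 in the 6 groups, with a point per library and a bar at the mean of 3. All 4 genes are higher in OCI-AML2 clone 1 than in OCI-AML2 parental cells, and ABCA1, NPC2 and LPCAT3 are lower in the OCI-AML3 clones than in OCI-AML3 parental cells.

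Markers of cell type moved with the groups as well. Of 12 myeloid markers 5 had a settled symbol, and their summed level was 306 to 335 TPM in OCI-AML3 clone 1, 346 to 385 in clone 2 and 893 to 1039 in parental libraries. In OCI-AML2 it was 658 to 918 TPM in clone 1, 578 to 671 in clone 2 and 823 to 868 in parental libraries. CD68, a lysosomal protein of macrophages, made up most of the sum in every group, and the 5 markers did not move together. CD68 averaged 188 and 216 TPM in OCI-AML3 clones 1 and 2, against 823 TPM in parental cells. CD14, a monocyte co-receptor, averaged 42.1 and 50.2 TPM there, against 0.813 TPM. The mean of ANPEP was also higher in both OCI-AML3 clones, and those of FCGR1A and ITGAM were lower. In both OCI-AML2 clones the means of ITGAM and ANPEP were higher and those of CD14 and FCGR1A lower. Some of these levels were very low. ITGAM averaged 0.0200, 0.0533 and 0.200 TPM in OCI-AML3 clone 1, clone 2 and parental cells. ANPEP averaged 0.430, 0.223 and 0.147 TPM in OCI-AML2 clone 1, clone 2 and parental cells. All of these lie under the 1 TPM minimum of the fit, so no marker change is read from them. CD68 averaged 706 and 574 TPM in OCI-AML2 clones 1 and 2, against 706 TPM in parental cells. Of 4 hepatocyte markers, chosen since liver makes most apolipoproteins, only SERPINA1 had a settled symbol, so no cell type is read from it. It had 24.9 to 28.9 TPM in the OCI-AML3 clones and 4.21 to 4.57 TPM in parental libraries. In OCI-AML2 clones 1 and 2 SERPINA1 averaged 0.853 and 0.460 TPM, against 1.40 TPM in parental cells. Of 6 lymphoid markers, CD3D was listed at 0 in all OCI-AML3 groups, and NKG7 averaged 3.28 and 4.79 TPM in the OCI-AML3 clones, against 16.8 TPM in parental cells. In OCI-AML2 clones 1 and 2 NKG7 averaged 129 and 173 TPM, against 69.2 TPM in parental cells, and CD3D averaged 1.33 and 1.37 TPM and was listed at 0 in parental cells. Their part in the results was not tested. Erythroid, lung alveolar, fat and epithelial markers had no settled symbol and were not analysed here.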

How the data were processed

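RNA was sequenced from 18 libraries in 6 groups of 3, with groups and replicate numbers from the sample titles. Per the file headers the authors deposited TPM per gene and library. For the aligner, counting tool, build and annotation the sources used here give no name. Depth is unknown, so no counting error is given. The table holds 6999 lines and 5069 distinct sets of values, and 97.5% of lines reached an absolute log2 ratio of 0.95 in some contrast of a set made of parental against parental, OCI-AML3 clones against parental and OCI-AML2 clone 1 against parental. Each set was counted once. A symbol was settled for 2309 sets: by repeats under it, by the replicate order of OCI-AML3 clone 1 against a twin line, or, for a single line, by a parental log2 ratio under 0.6. Replicate numbers of OCI-AML3 clone 1 are therefore not secure. The distinct sets sum to 170141 to 199403 TPM per library, and 0 value columns lacked a sample.

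A limma model (version 3.58.1, R 4.3.3) with 1 mean per group and an intensity trend was fitted to log2(TPM + 1) of all 18 libraries. It covered the 4413 sets that reached 1 TPM in 3 or more libraries. All 5 members passed this minimum. Two-sided p-values received a Benjamini-Hochberg adjustment over every tested set in the comparison, and 0.05 was the threshold. The 95% intervals use 12 residual degrees of freedom. The fit was tested on simulated data. The members and lists were chosen with earlier results of these data known. Genes named are the 5 members, the tested genes of the lists (the 8 with the largest mean absolute change by rule, the others because their lists were short), and the 3 symbols most like each member. Alternatives were a pseudocount of 0.1, median-of-ratios rescaling, a 5 TPM minimum, no minimum, a replicate block, single-line fits and leaving out each library.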

Additional observations from a re-analysis of the deposited data

Results flagged for a closer look

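ABCA1 moved in opposite directions in clones of different lines. Every library of OCI-AML3 clones 1 and 2 was below every OCI-AML3 parental library, and every library of OCI-AML2 clone 1 was above every OCI-AML2 parental library. The change in OCI-AML3 clone 1 minus that in OCI-AML2 clone 1 was -2.22 on the log2(TPM + 1) scale, and for OCI-AML3 clone 2 it was -2.07. This difference was not tested. It did not extend to OCI-AML2 clone 2, whose libraries overlapped the parental ones.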

How the results depend on the processing

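Each member kept the sign of its difference in both OCI-AML3 clones and in OCI-AML2 clone 1 under every alternative run, and the calls for PLTP and ABCA3 in OCI-AML2 clone 2 held in all of them. The exception among the calls was ABCA2 between the OCI-AML3 clones (adjusted p = 0.0803 with the replicate block). The difference of clone changes between the lines (OCI-AML3 minus OCI-AML2) moved with a pseudocount of 0.1 to -2.14 for ABCA1, -2.38 for ABCA3, -3.63 for PLTP and 3.98 for APOC2. With rescaling by medians of ratios it was -1.33 for ABCA1, -0.52 for ABCA2, -1.62 for ABCA3 and -3.25 for PLTP. Rescaling turned the small PLTP difference between the parental lines to -0.04, where the libraries overlap. The number of sets that differed between OCI-AML3 clones 2 and 1 was 301. It was 166 with a pseudocount of 0.1, 175 with the replicate block and 102 to 369 with 1 library left out, lowest without OCI-AML3 clone 2 replicate 2. It was also over 1.5 times lower without OCI-AML3 clone 1 replicate 1, 2 or 3 (143, 182 and 179) and without OCI-AML3 clone 2 replicate 1 (171). Replicate numbers of OCI-AML3 clone 1 can stand for different libraries in different sets, so leaving out a number there may not remove a single library. The causes were not tested. The correlation of same-numbered deviations ran from -0.136 to 0.177 in OCI-AML3 and from -0.343 to 0.035 in OCI-AML2. In OCI-AML2, replicate numbers therefore did not pair the libraries. Replicate numbers of OCI-AML3 clone 1 are not secure, so correlations with that clone cannot show whether its libraries were paired. OCI-AML3 clone 2 and parental libraries gave -0.03, -0.032 and 0.177. The replicate block, which has the same limit for OCI-AML3 clone 1, changed no other call of a member. Without depth, low levels such as ABCA1 and OCI-AML3 parental APOC2 have no counting error to set beside their spread.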

Other observations

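The 3 lines left out had means, in OCI-AML3 clone 1, clone 2 and parental cells, of 23.0, 21.1 and 19.7 TPM for the line printed as ABCA2, 0.187, 0.123 and 0.0900 TPM for that printed as ABCA3, and 1.33, 1.28 and 0.893 TPM for that printed as APOC2. In OCI-AML2 clone 1, clone 2 and parental cells they were 8.03, 8.75 and 8.67 TPM, 10.8, 11.3 and 6.33 TPM, and 12.4, 11.2 and 10.5 TPM. Each of them passed the selection limit between the parental lines, and none passed it in OCI-AML2 clone 1 or in both OCI-AML3 clones. The line printed as ABCA3 passed it in OCI-AML3 clone 1 (log2 ratio of TPM means 1.05) and not in OCI-AML3 clone 2 (0.45). Which gene these lines belong to was not settled.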
